A study of Mus musculus with 8 samples.

Results

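The genes described here are the chemokine receptors other than Cxcr2 that serve the retention, homing and inflammatory recruitment of leukocytes, taken by gene symbol: Cxcr4, Ccr1, Ccr2, Ccr3, Ccrl2, Cxcr3, Ccr7 and Cx3cr1. All 8 were found among the 55414 genes listed, and all 8 passed the filter on low counts that left 16778 genes to test. RNA was sequenced from spleen neutrophils of 4 WT and 4 Cxcr2-/- mice, with 1 library per mouse. All mice were on the FVB background, 10 weeks old and kept in SOPF housing. The knockout was present in every cell of the animal and not only in neutrophils. The cells were enriched with a CD11b selection kit and then sorted as CD45+ CD11b+ Ly6G+ F4/80- cells, so other cells that pass this gate also count. Values are CPM (counts scaled to a common library size after TMM normalization), and a negative log2 fold change means a lower level in Cxcr2-/- mice. In these bulk libraries fewer cells of a type and less RNA per cell cannot be told apart.

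Chemokine receptors are proteins of the cell membrane with helices that cross it repeatedly, and most signal through inhibitory G proteins when a chemokine binds. In neutrophils CXCR2 and CXCR4 are known for opposite roles: CXCL1 and CXCL2 draw the cell out of the marrow through CXCR2, while CXCL12 holds it there, or calls it back with age, through CXCR4. CCR1, CCR2, CCR3, CXCR3 and CX3CR1 are better known from monocytes, eosinophils and lymphocytes, and CCRL2 is an atypical receptor that binds chemerin without the usual G protein signal.

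Counts on genes ranged from 34220182 to 46233555 in WT and from 37549648 to 43789253 in Cxcr2-/- libraries. The targeted gene, Cxcr2, averaged 1956 ± 221 CPM in the WT mice and 17.1 ± 3.46 CPM in the knockouts (SD, n = 4 each), which follows the labels. The summed CPM of 8 neutrophil markers was 29020 to 42060 in WT and 64070 to 77580 in Cxcr2-/-, with most of it from S100a8 and S100a9. In that list 5 genes were higher, and Csf3r (log2 fold change -1.06) and Cd101 (-1.78) were lower without overlap. All 10 markers of immature neutrophils were higher in Cxcr2-/-. Among all genes tested 23.7% were higher and 21% lower at an adjusted p under 0.05. Outside genes lay 31.4% to 41.5% of the pairs counted in WT and 26.7% to 31.9% in Cxcr2-/- libraries (p = 0.0571 in a two-sided exact permutation test with n = 4 each). The 10 genes with the most counts took a mean of 10.5% of the counts in WT and 17.7% in Cxcr2-/- (exact permutation p = 0.0286, the smallest that 4 against 4 allow), and the share of pairs not aligned uniquely was higher in Cxcr2-/- by 2.71 percentage points (exact permutation p = 0.0571). Cxcr2-/- replicates 3 and 4 stood apart from replicates 1 and 2 of their group along the second principal component, at -34.6 and -38.3 against 31.8 and 31.4. These libraries held more RNA of some monocyte and granule genes, and values that rest on them are also given without them.

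Promoters are shown for 4 receptors, the 3 with the most RNA per length in WT neutrophils and Ccr3, a scarcer receptor of the same chromosome as Ccr1 that fell with them. Each line holds the 250 bases before the RefSeq start (GRCm38.p6), 5′ to 3′, and capitals mark matches to one of 6 motifs searched on both strands.
Cxcr4, chr1:128592300-128592549, minus strand: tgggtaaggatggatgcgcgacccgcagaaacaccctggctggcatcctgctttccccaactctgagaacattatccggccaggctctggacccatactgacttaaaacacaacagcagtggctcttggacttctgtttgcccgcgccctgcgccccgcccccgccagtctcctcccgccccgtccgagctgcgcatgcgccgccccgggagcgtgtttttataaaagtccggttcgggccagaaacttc
Ccr1, chr9:123968693-123968942, minus strand: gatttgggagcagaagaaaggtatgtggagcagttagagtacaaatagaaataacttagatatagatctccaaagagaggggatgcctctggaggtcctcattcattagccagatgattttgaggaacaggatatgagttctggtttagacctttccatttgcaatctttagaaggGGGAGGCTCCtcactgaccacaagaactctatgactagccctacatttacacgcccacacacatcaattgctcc
Ccrl2, chr9:111057519-111057768, minus strand: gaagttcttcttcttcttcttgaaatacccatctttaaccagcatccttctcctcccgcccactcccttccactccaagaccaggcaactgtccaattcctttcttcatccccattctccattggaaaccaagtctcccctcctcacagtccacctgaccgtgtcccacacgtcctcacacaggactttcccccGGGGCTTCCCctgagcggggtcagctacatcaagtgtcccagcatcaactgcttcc
Ccr3, chr9:124021721-124021970, plus strand: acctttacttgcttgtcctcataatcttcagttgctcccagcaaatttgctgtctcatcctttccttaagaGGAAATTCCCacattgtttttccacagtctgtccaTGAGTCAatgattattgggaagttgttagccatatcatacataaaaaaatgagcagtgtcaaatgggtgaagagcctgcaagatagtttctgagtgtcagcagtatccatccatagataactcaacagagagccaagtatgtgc
The motifs were AP-1 (TGANTCA), CRE (TGACGTCA), an E-box (CACGTG), C/EBP (TTGCNNAA), PU.1 (GAGGAAGT) and kappaB. No matches to different motifs overlapped in the members. A kappaB match lay 74 bases before the start of Ccr1, 56 before that of Ccrl2 and 179 before that of Ccr3, so 3 of the 7 members with a promoter entry held one, beside 7.01% of all 27025 promoters searched. Ccr3 also had an AP-1 match 144 bases before its start, the only one among the 7, beside 6.87% of all promoters. The Cxcr4 promoter held none of the 6 motifs in this window. It was rich in GC (61.2%) with 19 CpG, where the median promoter had 52.0% and 6, while those of Ccr1 and Ccr3 held 1 and 0 CpG. A PU.1 match stood 16 bases before the start of Cxcr3, and 2.44% of all promoters held one. The E-box, C/EBP and CRE letters were in none of the 7, beside 6.05%, 9.55% and 1.62% of all promoters.

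Cxcr4, Ccr1, Ccr3, Ccrl2, Cxcr3 and Ccr7 were lower in Cxcr2-/- neutrophils, Ccr2 was higher, and Cx3cr1 did not pass the test. Thus 6 of the 8 receptors fell and 1 rose at a Benjamini-Hochberg adjusted p under 0.05 over all genes tested (quasi-likelihood test of edgeR), where 21% of the genes tested were lower, 23.7% higher and 44.7% either. With a change of at least 1.5-fold asked for as well, the counts stayed at 6 and 1, beside 15.7% of genes in each direction. In 6 of the 8 the WT and Cxcr2-/- values did not overlap and the WT values were higher, a pattern that 19.1% of all tested genes showed. Ccr7 counts among these 6 by the narrowest of gaps, 0.92559 CPM in WT replicate 4 against 0.92361 CPM in Cxcr2-/- replicate 4. None of the 8 had all Cxcr2-/- values above the WT values, as 22.5% of all tested genes did. The median log2 fold change of the 8 was -1.01, beside 0.01 over all tested genes.

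**Figure D1:**
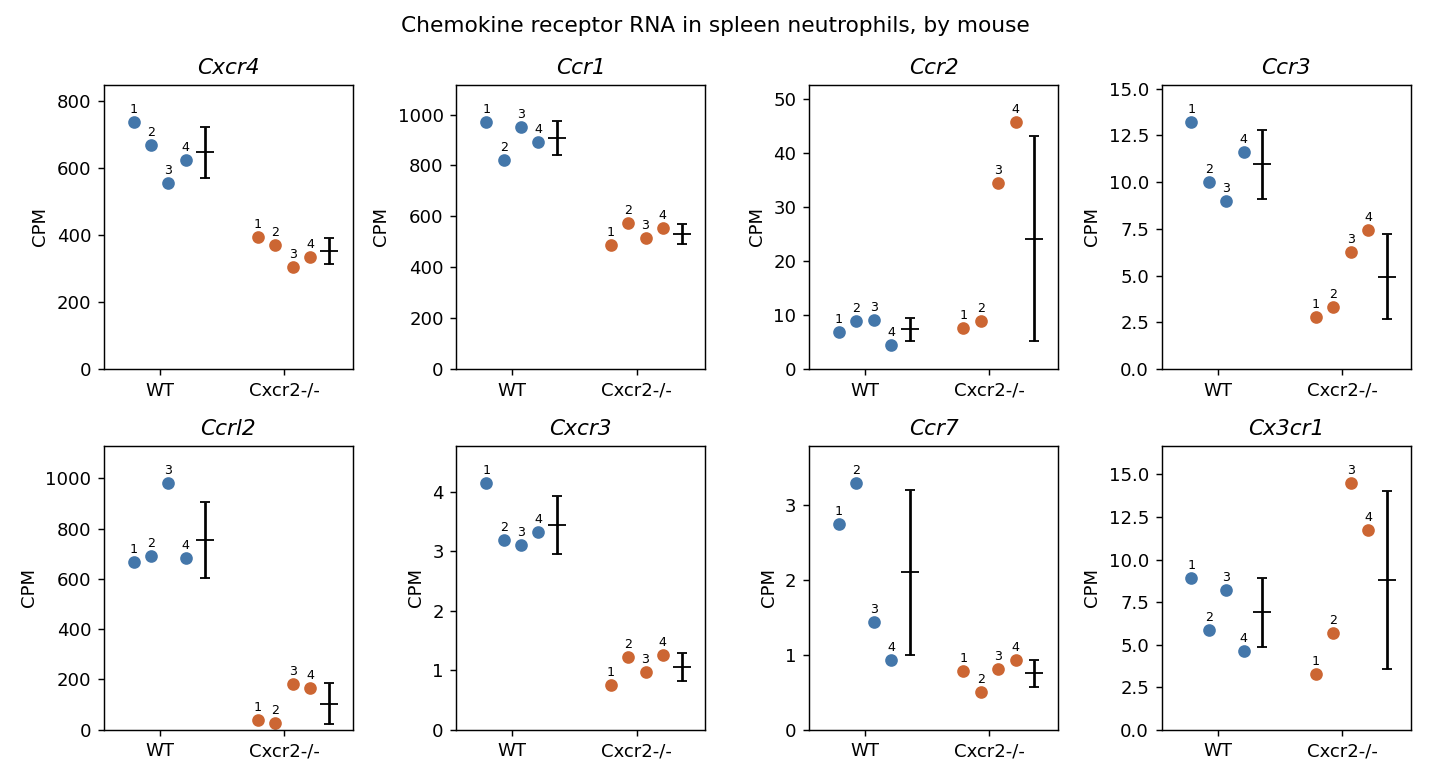
CPM of each of the 8 receptors in each mouse (points, numbered by replicate), with the mean and SD of the 4 mice of a group; each panel has its own linear axis from 0. Cxcr4, Ccr1, Ccr3, Ccrl2, Cxcr3 and Ccr7 were lower in all 4 Cxcr2-/- mice than in any WT mouse, and Ccr2 and Cx3cr1 were high in Cxcr2-/- replicates 3 and 4. For Ccr7 the groups all but touched, at 0.92559 CPM in WT replicate 4 and 0.92361 CPM in Cxcr2-/- replicate 4.

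Cxcr4, the receptor for CXCL12 that retains neutrophils in the marrow, lies on chromosome 1 from 128588199 to 128592293 of GRCm38, on the minus strand (ENSMUSG00000045382). It was at 737, 668, 555 and 623 CPM in the WT mice and at 394, 371, 305 and 335 CPM in the Cxcr2-/- mice. Every Cxcr2-/- mouse was below every WT mouse, and the spread within each group was small against the gap between them. The means were 645.7 ± 76.3 and 351.2 ± 39.0 CPM (SD, n = 4 each), 1.84-fold lower in Cxcr2-/-. The log2 fold change was -0.88 (SE 0.12, 95% interval -1.13 to -0.62, adjusted p = 7.02e-05). Cxcr2 RNA was lower as well, by far more, but Cxcr2 is the targeted gene and its fall comes with the genotype. By flow cytometry the paper found a higher percentage of CXCR4+ cells among spleen neutrophils of Cxcr2-/- mice. That counts cells by their protein, while the values here are RNA of a bulk of cells.

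Ccr1, a receptor for CCL3, CCL6 and CCL9 on myeloid cells, lies on chromosome 9 from 123962124 to 123968692, minus strand (ENSMUSG00000025804). Its RNA was at 971, 820, 951 and 890 CPM in WT and at 485, 574, 515 and 554 CPM in Cxcr2-/- mice. The 4 values of each group were close to each other and the groups were far apart. Mean levels were 908 ± 68.2 and 532.1 ± 39.6 CPM, and the log2 fold change was -0.77 (SE 0.10, 95% interval -0.99 to -0.55, adjusted p = 6.42e-05). Of the 8 receptors Ccr1 had the smallest relative spread in both groups.

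Ccrl2, the atypical receptor that presents chemerin (the product of Rarres2), lies on chromosome 9 from 111054486 to 111057519, minus strand (ENSMUSG00000043953). It was at 667, 692, 982 and 681 CPM in WT neutrophils. In Cxcr2-/- neutrophils it was at 39.8 and 26.3 CPM in replicates 1 and 2 and at 182 and 166 CPM in replicates 3 and 4. All Cxcr2-/- values were far below the WT values, but the 4 mice formed a low and a less low pair. The means of 756 ± 152 and 103.5 ± 81.8 CPM gave a 7.30-fold lower level in Cxcr2-/- and a log2 fold change of -2.87 (SE 0.51, 95% interval -3.98 to -1.76, adjusted p = 6.24e-04), the largest of the 8 in size. Without Cxcr2-/- replicates 3 and 4 it was -4.53, and without replicates 1 and 2 it was -2.11, so the size of the fall differed between the pairs and the call did not.

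Ccr3, the eotaxin receptor of eosinophils, lies on chromosome 9 from 124021972 to 124031689, plus strand (ENSMUSG00000035448). Its values were 13.2, 9.99, 9.01 and 11.6 CPM in WT and 2.78, 3.29, 6.28 and 7.44 CPM in Cxcr2-/- mice. The groups did not overlap, and as for Ccrl2 the Cxcr2-/- replicates 3 and 4 were nearer to WT. Ccr3 averaged 10.96 ± 1.85 and 4.95 ± 2.27 CPM, with a log2 fold change of -1.15 (SE 0.28, 95% interval -1.74 to -0.55, adjusted p = 0.00464). It was -1.87 without Cxcr2-/- replicates 3 and 4 and -0.67 without replicates 1 and 2, and passed the test in both. The summed level of 8 eosinophil markers was 48.9 to 71.9 CPM in WT and 42.9 to 73.5 CPM in Cxcr2-/-. Among those markers Siglecf, an inhibitory lectin of eosinophils, was lower (log2 fold change -0.57, adjusted p = 0.00321), while the granule proteins Epx and Prg2 were higher and the receptor Il5ra was at or below 0.330 CPM in all libraries. Their part in the Ccr3 difference was not tested.

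The lymphocyte receptors Cxcr3 and Ccr7 were scarce and also lower. Cxcr3, which binds CXCL9 and CXCL10 and is best known from activated T and NK cells, lies on chromosome X from 101731535 to 101734269, minus strand (ENSMUSG00000050232). It was at 4.16, 3.20, 3.10 and 3.33 CPM in WT and at 0.758, 1.22, 0.966 and 1.26 CPM in Cxcr2-/- mice. The groups were well apart, with a log2 fold change of -1.71 (SE 0.23, 95% interval -2.20 to -1.22, adjusted p = 6.49e-05). Ccr7, which guides cells to lymph nodes along CCL19 and CCL21, lies on chromosome 11 from 99144196 to 99155077, minus strand (ENSMUSG00000037944). It was at 2.74, 3.30, 1.44 and 0.92559 CPM in WT and at 0.784, 0.498, 0.813 and 0.92361 CPM in Cxcr2-/- mice. Its groups all but touched, because WT replicate 4 was level with the highest Cxcr2-/- mouse. For Ccr7 the log2 fold change was -1.48 (SE 0.38, 95% interval -2.31 to -0.65, adjusted p = 0.00709), and it rested on as few as 18 counts in a library.

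Markers of cells that carry Cxcr3 and Ccr7 moved in part with them. Summed B cell markers (8 genes) were at 72.2 to 156 CPM in WT and 31.1 to 72.7 CPM in Cxcr2-/-. Of these 8 markers 6 were lower, beside 21% of all genes tested. Of the 7 dendritic cell markers 3 were lower, at a summed 555 to 919 CPM in WT and 147 to 228 CPM in Cxcr2-/-. Itgax, which myeloid cells other than dendritic cells also express, made up most of the latter sum, at 477 to 691 CPM in WT. WT replicate 2, the highest for Ccr7, also had the highest dendritic cell and macrophage sums (919 and 91.8 CPM). Its B cell sum was the lowest of the WT mice, at 72.2 CPM. Without this mouse the log2 fold change of Ccr7 was -1.20 (adjusted p = 0.0268). Of 8 T cell markers 5 were tested and 2 were lower, Cd4 (log2 fold change -2.20, adjusted p = 0.0075), which was highest in WT replicate 2 at 14.1 CPM, and Cd5 (-0.76, adjusted p = 9.76e-04). The T cell list summed to 114 to 136 CPM in WT and 101 to 152 CPM in Cxcr2-/-, with Cd3d at 80.1 to 136 CPM making up most of it and Cd3e, its partner in the T cell receptor complex, at or below 0.563 CPM in every library. NK cell markers summed to 1.07 to 9.61 CPM in WT and 4.76 to 12.9 CPM in Cxcr2-/-. Of these 7 markers only Nkg7 passed the test, and it was higher in Cxcr2-/- (log2 fold change 2.48, adjusted p = 0.00094), opposite to Cxcr3. The part of such cells in the Cxcr3 and Ccr7 differences was not tested.

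Ccr2, the CCL2 receptor that takes monocytes out of the marrow, was the single receptor of the 8 to pass the test as higher. It lies on chromosome 9 from 124101950 to 124113557, plus strand (ENSMUSG00000049103). It was at 6.83, 8.94, 9.06 and 4.34 CPM in WT, at 7.48 and 8.85 CPM in Cxcr2-/- replicates 1 and 2, and at 34.4 and 45.7 CPM in replicates 3 and 4. The first pair lay inside the WT range and the second far above it, so the groups overlapped. Averages were 7.29 ± 2.22 and 24.1 ± 19.0 CPM, and the log2 fold change was 1.72 (SE 0.49, 95% interval 0.65 to 2.80, adjusted p = 0.013). Without Cxcr2-/- replicates 3 and 4 it was 0.15 (adjusted p = 0.657), and without replicates 1 and 2 it was 2.46.

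Cx3cr1, the fractalkine receptor of patrolling monocytes and macrophages, lies on chromosome 9 from 119901616 to 120069879, minus strand (ENSMUSG00000052336). Its RNA was at 8.91, 5.85, 8.20 and 4.60 CPM in WT and at 3.26, 5.67, 14.5 and 11.7 CPM in Cxcr2-/- mice. Cxcr2-/- replicates 3 and 4 were above all WT mice and replicate 1 below them. The log2 fold change of 0.35 (SE 0.38, 95% interval -0.46 to 1.17, adjusted p = 0.476) leaves room for a difference in either direction. It was -0.64 (adjusted p = 0.0925) without replicates 3 and 4, 0.93 (adjusted p = 0.00642) without replicates 1 and 2, and -0.00219 without replicate 3 alone.

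Monocyte markers moved with Ccr2 and Cx3cr1 across the Cxcr2-/- mice, though not all alike. Of 7 markers 3 were higher and 1 was lower in Cxcr2-/-, beside 23.7% higher and 21% lower among all genes tested. The list summed to 677 to 830 CPM in WT and 881 to 1143 CPM in Cxcr2-/-. F13a1, the coagulation factor XIII subunit of monocytes, was at 8.11 and 8.77 CPM in Cxcr2-/- replicates 1 and 2 and at 38.4 and 57.8 CPM in replicates 3 and 4. Fn1, fibronectin, followed the same split, at 34.5 and 24.4 against 129 and 143 CPM. In WT mice F13a1 was at 3.70 to 8.24 CPM and Fn1 at 15.6 to 29.2 CPM. Both passed as higher with overlapping groups, and Cxcr2-/- replicates 1 and 2 were near the WT level. Ly6c2, a surface antigen shared with immature neutrophils, was at 573 to 663 CPM in all 4 Cxcr2-/- mice against 194 to 270 CPM in WT. Csf1r, the receptor for M-CSF, went the other way, with 403 to 499 CPM in WT mice and 190 to 269 CPM in knockouts. Mpo, the myeloperoxidase of early neutrophil granules, was at 19.1 and 20.2 CPM in Cxcr2-/- replicates 1 and 2 and at 81.2 and 146 CPM in replicates 3 and 4. In WT mice Mpo was at 1.13 to 6.25 CPM, so unlike Ccr2 it was above WT in all 4 Cxcr2-/- mice. The part of monocyte or early neutrophil RNA in the Ccr2 value was not tested.

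**Figure D2:**
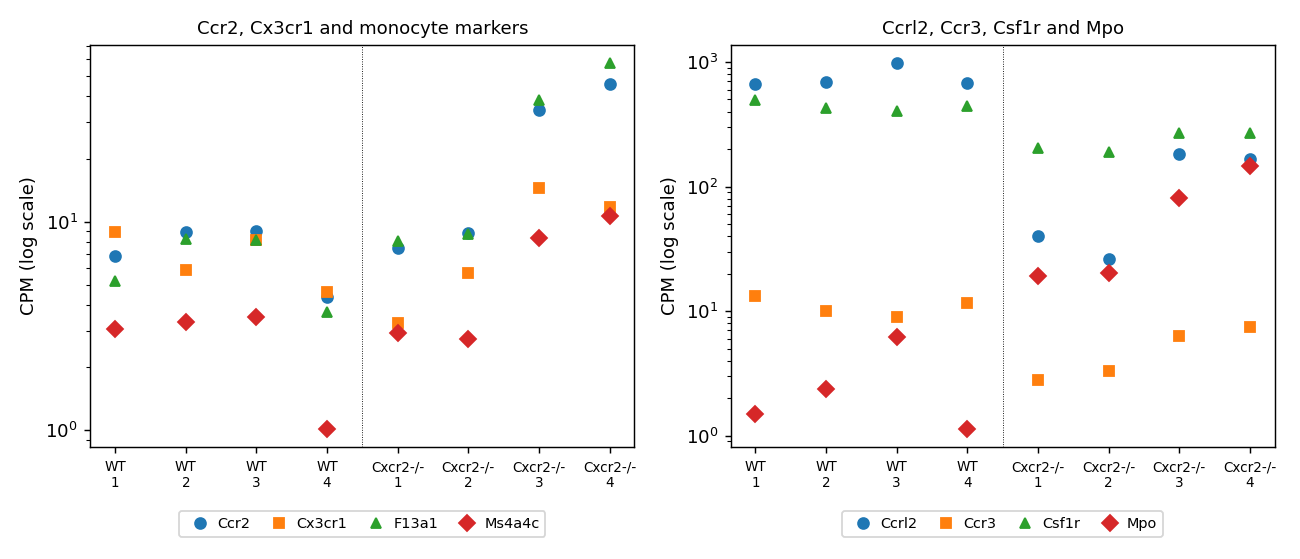
CPM on a log axis of Ccr2, Cx3cr1 and the monocyte markers F13a1 and Ms4a4c (left) and of Ccrl2, Ccr3, Csf1r and Mpo (right) in each of the 8 libraries. Cxcr2-/- replicates 3 and 4 were above replicates 1 and 2 for all the genes plotted, with F13a1 at 38.4 and 57.8 CPM and Ccr2 at 34.4 and 45.7 CPM.

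Levels can be compared between genes only per length, here as CPM per kilobase of exons. In WT neutrophils Cxcr2 came first at 642 ± 72.4, followed by Cxcr4 at 357 ± 42.2, Ccr1 at 320.5 ± 24.1 and Ccrl2 at 291 ± 58.3 CPM per kilobase. The last 3 overlapped each other, from 307 to 407, 289 to 343 and 257 to 378, so their order is not set by these mice. Ccr3 at 3.35, Cxcr3 at 1.99, Cx3cr1 at 1.53, Ccr2 at 1.08 and Ccr7 at 1.06 CPM per kilobase were far lower. Of these, Ccr3 was above Cxcr3 in every mouse, and each of the rest overlapped its neighbour in the order. Between the high and the low members stood Cxcr1, the other receptor for ELR chemokines, at 9.92 CPM per kilobase.

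In Cxcr2-/- neutrophils Cxcr4 and Ccr1 led at 194 ± 21.6 and 188 ± 13.98 CPM per kilobase, with overlapping ranges, and Ccrl2 followed at 39.8 ± 31.5. Next among the 8 were Ccr2 at 3.57, Cx3cr1 at 1.95 and Ccr3 at 1.51 CPM per kilobase, which overlapped, and Cxcr3 at 0.607 and Ccr7 at 0.382 were lowest. The 8 receptors together summed to 928.6 to 1029 CPM per kilobase in WT and to 407.9 to 457.7 in Cxcr2-/- mice, with no overlap. Of the RNA of 23 receptors, Cxcr2 left out, Ccrl2 made up 24.8% to 36.2% in WT, 3.63% and 2.31% in Cxcr2-/- replicates 1 and 2, and 15.5% and 13.4% in replicates 3 and 4. The share of Ccr1 was 30.5% to 33.3% in WT and 40.4% to 46.3% in Cxcr2-/-, although its level fell, and that of Cxcr4 overlapped between groups at 29.4% to 39.4% and 37.5% to 51.7%. These shares are a description of the same counts and were not tested.

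**Figure D3:**
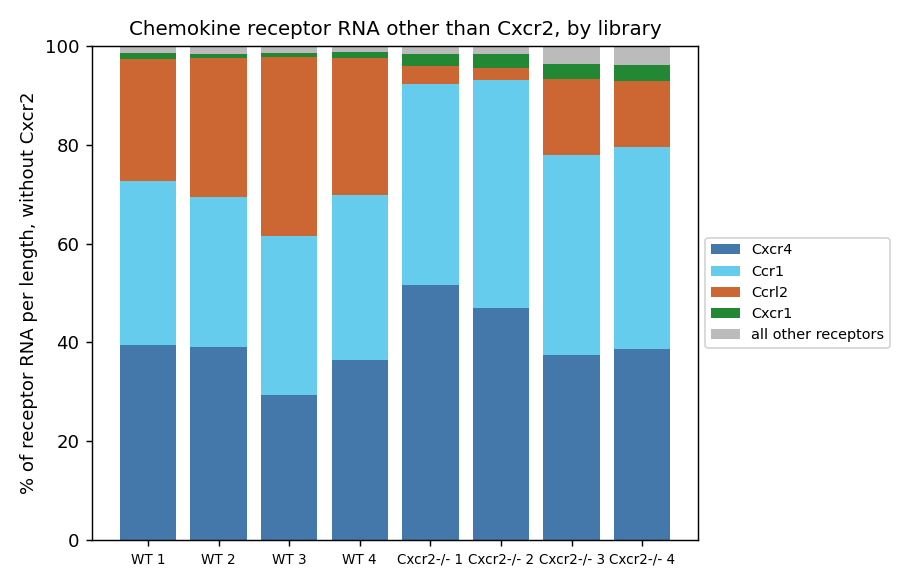
Percent of the summed CPM per kilobase of 23 chemokine receptors, Cxcr2 left out, in each library, as stacked bars for Cxcr4, Ccr1, Ccrl2, Cxcr1 and all others together. Cxcr4, Ccr1 and Ccrl2 made up nearly all of it, and the Ccrl2 share was 24.8% to 36.2% in WT and 2.31% to 15.5% in Cxcr2-/- libraries.

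Other chemokine receptors were mostly scarce. Of 15 others 11 were tested, and 2 were lower, 1 was higher and 8 did not pass, beside 21% lower and 23.7% higher among all genes tested, with a median log2 fold change of 0.23. The difference between these receptors and the 8 was not tested. Ccr6, the CCL20 receptor, averaged 1.21 ± 0.333 CPM in WT mice and 0.495 ± 0.149 CPM in knockouts (log2 fold change -1.29, SE 0.33, adjusted p = 0.00641), and without Cxcr2-/- replicates 1 and 2 it did not pass (-0.96, adjusted p = 0.0591). Ccr1l1, a relative of Ccr1 that lies 8.55 kb from it, was at 1.07 ± 0.331 and 0.324 ± 0.132 CPM (log2 fold change -1.70, SE 0.37, adjusted p = 0.00245). Ccr10, a receptor of skin-homing T cells and plasma cells, passed as higher at 0.331 ± 0.124 and 0.708 ± 0.256 CPM (log2 fold change 1.11, adjusted p = 0.0397), with overlapping groups. Upper-quartile scaling, total-count scaling, no filter, and leaving out any single library other than WT replicate 3 or Cxcr2-/- replicate 1 each ended that call, with an adjusted p of up to 0.133. Cxcr1 was at 14.8 ± 2.03 and 18.8 ± 2.74 CPM (log2 fold change 0.35, adjusted p = 0.0522), and without WT replicate 1 or Cxcr2-/- replicate 1 its adjusted p was 0.037 or 0.0181.

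**Figure D4:**
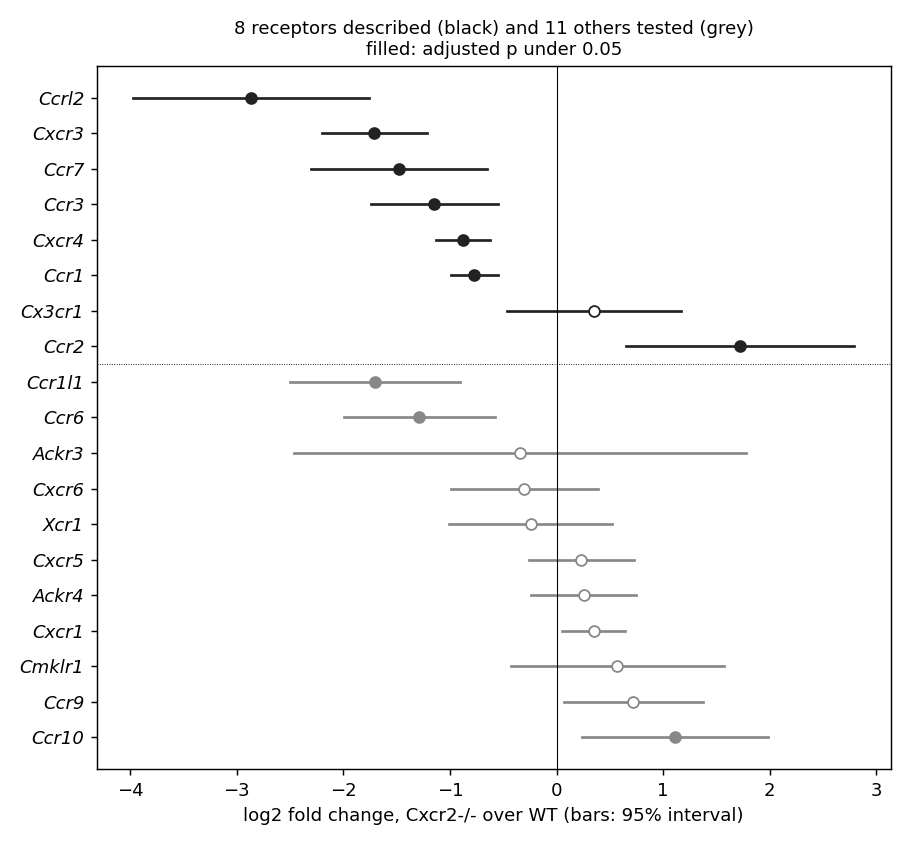
Log2 fold change, Cxcr2-/- over WT, with its 95% interval for the 8 receptors described (black) and 11 other chemokine receptors tested (grey); filled points passed an adjusted p under 0.05 in edgeR's quasi-likelihood test. Ccrl2 lies farthest to the left at -2.87 and Ccr2 farthest to the right at 1.72.

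Ligands of the 8 receptors with RNA in these libraries were lower or did not pass. Of 18 ligands 9 had enough counts to test, and 5 were lower and 0 higher, beside 21% lower and 23.7% higher among all genes tested. Their median log2 fold change was -1.003, beside 0.01 over all genes tested. At an unadjusted p under 0.05 in edgeR the number higher was also 0, and DESeq2 called 0 higher and 6 lower. Ccl3, a CCR1 ligand, was at 34.02, 67.4, 67.8 and 48.7 CPM in WT and 4.35, 3.54, 15.8 and 9.28 CPM in Cxcr2-/- mice (log2 fold change -2.72, adjusted p = 1.38e-04). Ccl6, which also binds CCR1, was at 959, 540, 820 and 871 CPM in WT and at 170, 174, 185 and 179 CPM in Cxcr2-/- mice (log2 fold change -2.17, adjusted p = 5.77e-07). Ccl4, a close relative of Ccl3, was at 16.5 ± 3.93 and 4.297 ± 1.87 CPM (log2 fold change -1.94, adjusted p = 1.20e-04). All 3 were lower in every Cxcr2-/- mouse than in any WT mouse. Ccl9, another CCR1 ligand, did not pass the test (log2 fold change -0.01, adjusted p = 0.982), at 7.60 to 9.73 CPM in WT, at 2.48 and 3.38 CPM in Cxcr2-/- replicates 1 and 2 and at 12.9 and 14.8 CPM in replicates 3 and 4. Cxcl12, the ligand of CXCR4, was at or below 0.161 CPM in every library and was not tested. Ccl19, Ccl21a, Ccl8, Ccl11 and Ccl12 had 0 counts in all 8 libraries.

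Signalling genes downstream of chemokine receptors went both ways. Of 24 tested 11 were higher, 8 lower and 5 did not pass, beside 23.7% higher and 21% lower among all genes tested. Their median log2 fold change was 0.13, and with upper-quartile scaling the counts were 7 higher and 9 lower. The largest rises were those of Plcb3, a phospholipase C (29.1 ± 3.24 and 51.1 ± 8.15 CPM, log2 fold change 0.81, adjusted p = 1.87e-04), of Rgs19, which speeds up the turn-off of inhibitory G proteins (0.65, adjusted p = 0.00119), and of Rac2, the haematopoietic Rac GTPase (0.65, adjusted p = 0.002). The largest falls were those of Rgs1 (-1.89, adjusted p = 0.013), Rgs2 (-1.43, adjusted p = 6.67e-06) and Grk5 (-0.96, adjusted p = 7.38e-06). Rgs1 and Rgs2 shorten G protein signals, and the kinase Grk5 marks active receptors for uptake. Rgs2 was at 1721, 1198, 1404 and 1597 CPM in WT and at 460, 537, 552 and 653 CPM in Cxcr2-/- mice, with no overlap. Rgs1 overlapped between groups, at 19.9 to 79.2 CPM in WT and 3.65 to 23.2 CPM in Cxcr2-/-, and was at -3.46 without Cxcr2-/- replicates 3 and 4 and -1.15 without replicates 1 and 2. Of the other RGS proteins, receptor kinases and arrestins on the list, Arrb2 (0.61, adjusted p = 0.00603) and Grk6 (0.41, adjusted p = 0.0341) were higher, Arrb1 was lower (-0.62, adjusted p = 0.00213), and Grk2, Grk3 and Rgs18 did not pass. The Grk6 call was lost with RLE or upper-quartile scaling and without WT replicate 1, 2 or 3 or Cxcr2-/- replicate 1 or 2, with an adjusted p of up to 0.11.

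On the chromosome the members did not share their change with all neighbours. Of the 8, 5 lie on chromosome 9, where Ccr1, Ccr3 and Ccr2 belong to 1 cluster of receptor genes. In that cluster Ccr1, Ccr1l1 and Ccr3 were lower while Ccr2 was higher, a call that rested on Cxcr2-/- replicates 3 and 4. Ccr9, Cxcr6 and Xcr1, between 123678439 and 123862029 of the same chromosome, did not pass (log2 fold change 0.72, -0.30 and -0.24). Ccr1 and Ccr1l1 are close in sequence, so reads could be split or lost between them. Ltf, the gene of lactoferrin in secondary granules, lies 11.7 kb from Ccrl2 and was higher, at 8700 ± 594 and 21060 ± 3822 CPM (log2 fold change 1.28, adjusted p = 2.98e-05), opposite to Ccrl2. Ogt, 47.2 kb from Cxcr3, was lower (-0.92, adjusted p = 4.34e-05). In GENCODE M21 the span of Cx3cr1 overlaps part of Wdr48 and takes in Gorasp1, Ttc21a, Csrnp1 and Xirp1. Whether their exons overlap was not checked, so the Cx3cr1 count may depend on how any shared reads were assigned. Of the 4 tested there Csrnp1 passed the test (log2 fold change -0.999, adjusted p = 9.24e-05). Slc25a38, 40.5 kb from Cx3cr1, was higher (0.61, adjusted p = 0.00329). No other member overlaps another gene in that annotation.

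Across the 8 libraries each receptor had genes that varied from mouse to mouse as it did, measured as Pearson's r of log2 CPM deviations from the group means over 8370 or 8371 genes. These r describe only how the same 8 libraries vary together, and a search over so many genes finds high values by its nature. For Ccr2 the nearest were F13a1 (r = 0.996), Zc3hc1 (0.993) and Ms4a6c (0.989). Ccrl2 varied most like the CXCR2 ligand gene Cxcl2 (r = 0.990), which was at 349, 377, 666 and 488 CPM in WT and 12.7, 9.91, 235.5 and 193 CPM in Cxcr2-/- mice. Like Ccrl2, Cxcl2 was highest in WT replicate 3 and less low in Cxcr2-/- replicates 3 and 4. The next for Ccrl2 were Cyb5r3 (0.989) and Ccdc86 (0.988).

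For Cxcr4 the nearest were Ptafr (r = 0.967), the receptor for platelet-activating factor, Eaf1 (0.964) and Usp49 (0.959). Ptafr ranged over 390 to 488 CPM in WT mice and 196 to 256 CPM in knockouts, a fall like that of Cxcr4, while Eaf1 and Usp49 did not pass the test. Ccr1 varied most like Fopnl (0.989), Mcts1 (0.983) and Cyb5r4 (0.982), all of which were higher in Cxcr2-/- where Ccr1 was lower. For Ccr3 they were Zfp422 (0.988), Strap (0.985) and Otulinl (0.980), for Cxcr3 Tlr8 (0.972), Ccng2 (0.965) and Adam10 (0.964), and for Ccr7 Pepd (0.969), Scimp (0.965) and H2-DMb2 (0.957). Cx3cr1 went most with Naca (0.987), the mitochondrial gene mt-Co1 (0.985) and Adgre4 (0.981).

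Under 15 other ways of processing the same counts the 6 lower receptors stayed lower and past the threshold in all 15. Cxcr4 ranged from -0.998 to -0.806 and Ccr1 from -0.89 to -0.72 on the log2 scale. The highest adjusted p among the 6 was that of Ccr7, at 0.0304. With any single library left out Ccr2 stayed higher, with an adjusted p of up to 0.0426.

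**Figure D5:**
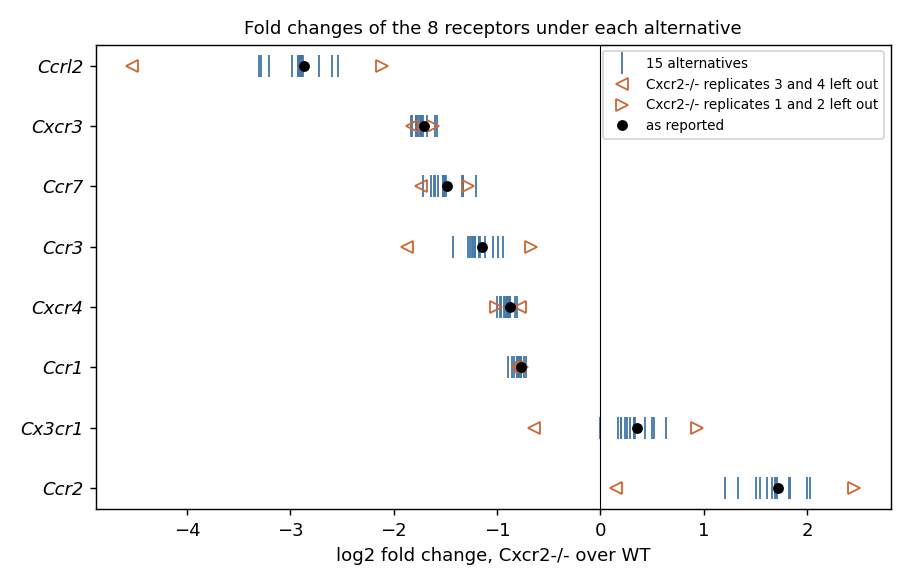
Log2 fold change of each of the 8 receptors, Cxcr2-/- over WT, as reported (black), under 15 alternatives (blue ticks) and with Cxcr2-/- replicates 3 and 4 or replicates 1 and 2 left out (triangles). Leaving out either pair moved Ccrl2 between -4.53 and -2.11 and Ccr2 between 0.15 and 2.46, while Cxcr4, Ccr1, Cxcr3 and Ccr7 moved little.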

How the data were processed

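Neutrophil RNA from 8 spleens, 4 WT and 4 Cxcr2-/-, was depleted of ribosomal RNA, made into directional libraries and read from both ends. The authors trimmed the reads, aligned them with STAR to mm10 and counted them with HTSeq, and they deposited the count of each gene per library as whole numbers without normalization. FastQC is named in the submitters' processing notes. The strand setting and the annotation release used for counting are not given in the sources used here. Groups and replicate numbers came from the labels. Whether the mice of a group were littermates is not given, and p-values weigh the difference between groups against the spread between these animals.

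The 8 members, the gene lists, the markers and the rule for naming genes were chosen with earlier results of these data known. The rule named all members and Cxcr2, other chemokine receptors that passed, up to 3 ligands and 3 signalling genes in each direction with the largest changes, the 3 protein-coding genes of an average log2 CPM of at least 2 that varied most like each member, protein-coding neighbours within 50 kb, and genes of the marker lists. Ccl9, Arrb1, Arrb2, Grk2, Grk3, Grk6 and Rgs18, of the same lists, were added after their values were seen. A gene that falls under the rule is not reported here and was left out of the list of other receptors.

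Gene symbols, positions and exon lengths came from GENCODE M21 (GRCm38), which had 52081 of the 55414 identifiers and left 1.43% of the counts without an entry. Most identifiers (52044) carried a newer version in the files than in M21, so gene boundaries may differ a little. Promoters came from the RefSeq table for GRCm38.p6, where 7 of the 8 members matched. HTSeq's own totals (no gene, ambiguous, not unique) stayed out of library sizes and tests.

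Genes were tested in R 4.3.3 with edgeR 4.0.16 (quasi-likelihood test on the counts, TMM, filterByExpr, Benjamini-Hochberg adjustment over 16778 genes), and a gene was called at an adjusted p under 0.05. The paper's tool, DESeq2 (version 1.42.0), was run as an alternative. The biological coefficient of variation was 0.202. The exact permutation test used SciPy 1.17.1. On simulated counts for 16416 genes edgeR found 84% of the genes set to change 4-fold, 56% of the 2-fold ones, and 9 genes that had not been changed. No library was a repeat of another: chi-square per gene between replicates of a group was 23.9 to 99.0, above sampling noise. Other alternatives were other scalings and filters, a 1.5-fold threshold, the replicate number as a block, and each library left out in turn. Leaving out pairs of Cxcr2-/- libraries and a transcript length in place of all exon bases were added after the data were seen.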

Additional observations from a re-analysis of the deposited data

Results flagged for a closer look

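In 18 groups of 4 mice (the 8 receptors and Cxcr2 in each genotype), the gap between the highest or lowest mouse and the next was compared with the whole range of the group. Ccrl2 in WT replicate 3 stood out, at 982 CPM where the other WT mice were at 667 to 692 CPM, with the gap 0.919 of the range which is above the 95% critical value of Dixon's test. By chance about 5% of groups would be marked this way, so 1 of 18 is no more than chance gives. Without this mouse the log2 fold change of Ccrl2 was -2.73 (adjusted p = 0.00219).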

How the results depend on the processing

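Under the 15 alternatives listed in the methods Cxcr4, Ccr1, Ccr3, Ccrl2, Cxcr3 and Ccr7 kept their direction and their side of the threshold, and 6 members were called lower in each. The number of members called higher, 1 as reported, was 0 in the fit with a replicate block, where Ccr2 was at 1.33 (adjusted p = 0.0592). Deviations of same-numbered mice correlated at r = 0.18, -0.148, 0.353 and -0.313, and not every library correlated best with its own number. With 4 mice a group, and Cxcr2-/- replicates 3 and 4 apart from 1 and 2, these r cannot show whether the numbers mark pairs. The block gave 7068 calls over all genes against 7495. With Cxcr2-/- replicates 3 and 4 left out the number of members higher was 0, Ccr2 was at 0.15 and Cx3cr1 at -0.64. With replicates 1 and 2 left out it was 2, with Cx3cr1 at 0.93. With single libraries left out Cx3cr1 ranged from -0.00219 (without Cxcr2-/- replicate 3) to 0.63 and Ackr3 from -1.47 to 0.23, with changed sign at 0.07 and 0.06 without Cxcr2-/- replicates 1 or 2. Ackr3 was at 0.64 without both of these, and without Cxcr2-/- replicates 3 and 4, which leaves 2 Cxcr2-/- libraries with 0 counts, it passed as lower (adjusted p = 0.00697). Cxcr5 and Cmklr1 turned to -0.127 and -0.06003 without Cxcr2-/- replicates 3 and 4. Over all genes 3969 were higher as reported and 2628 with a 1.5-fold threshold. Upper-quartile scaling moved the median of all genes from 0.01 to -0.11 (log2) and the share of calls that were higher from 53% to 41.2%. With a transcript length in place of exon bases the first 5 receptors per length in WT kept their order. The cause of these changes was not tested. At 18 to 164 counts a library, Ccr7 is the member whose value depth limits most.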
